A study of Mus musculus with 4 samples.

Results

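Genes of the unfolded protein response and the integrated stress response were followed in mouse islet cells exposed to inflammatory cytokines. They are Ddit3, Atf3, Atf4, Hspa5, Xbp1, Trib3, Herpud1, Dnajb9, Hsp90b1 and Chac1, which is 10 of the 31053 genes counted, and they were chosen by name. Islets of adult male C57BL/6 mice (C57BL6/J in the study's methods) were pooled, divided and cultured for 6 h with no cytokine, with IL-1β, with IFN-γ, or with both. A single-cell library was made from each culture, so there were 4 libraries and 1 per condition. A difference between conditions therefore cannot be told apart from a difference between libraries. No p-value was computed, and intervals cover counting error only.

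Secretory cells such as β-cells fold a large flow of protein in the endoplasmic reticulum (ER). When unfolded protein accumulates, ER sensors raise the production of chaperones and of the machinery that removes misfolded protein, and the kinase PERK slows translation while favouring translation of ATF4. Related kinases that sense viral RNA, lost amino acids or lost heme feed into the same ATF4 branch, which is called the integrated stress response. Its downstream genes include CHOP, the product of Ddit3, which is linked to β-cell death under lasting stress.

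The untreated library held 3486 barcodes and 50731370 UMIs, the IL-1β library 2911 and 20056630, the IFN-γ library 3694 and 31209339, and the library with both cytokines (the combined library) 2480 and 25716645. The cells described had between 200 and 4000 genes detected and no more than 12% of UMIs from mitochondrial genes. These were 7471 cells, or 1521, 2018, 2122 and 1810 in the same order, with medians of 15454, 7462.5, 9615 and 11123.5 UMIs per cell. The upper gene limit removed 843 barcodes from the untreated library and 146, 345 and 222 from the others. Each pair of libraries shared between 1 and 4 barcodes.

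Cells were called β-like, α-like, δ-like or PP-like when their leading hormone (insulin, glucagon, somatostatin or pancreatic polypeptide) was at least 10% of UMIs and 3 times the next. The β-like cells numbered 1168 untreated, 1056 with IL-1β, 1207 with IFN-γ and 1247 in the combined library, and insulin took a median of 41.4%, 21.6%, 28.5% and 32.1% of their UMIs. In the same order there were 82, 307, 243 and 148 α-like cells and 20, 31, 59 and 24 δ-like cells. Macrophage-like and endothelial-like cells, which carried at least 4 of 8 markers of their type, numbered 145 and 132 in all. A further 1078 cells, 14.4% of those kept, were assigned to no type. This share differed between libraries, at 6.51% untreated, 20.02% with IL-1β, 17.15% with IFN-γ and 11.66% in the combined library. Insulin took a median of 0.737%, 2.58%, 0.524% and 0.324% of the UMIs of these cells. With a leading hormone of at least 1% of UMIs, β-like cells numbered 1205, 1228, 1348 and 1313. The β-like cells compared were thus not selected to the same extent in each library. Levels are given in CPM, the UMIs of a gene per 1000000 UMIs summed over the cells of a type in a library, with exact Poisson 95% intervals. These are counts of 3′ ends, and levels are compared between libraries and cell types, not between genes. Genes known to answer each cytokine were highest in β-like cells of the libraries labelled with it. Nfkbia, an inhibitor of NF-κB that NF-κB itself induces, stood at 48.5 CPM untreated, 492 with IL-1β, 48.7 with IFN-γ and 628 in the combined library. Gbp2, an interferon-induced GTPase, stood at 1.497, 295, 828 and 1839.5, highest in the 2 libraries with IFN-γ and also above untreated with IL-1β alone.

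The promoters of the 10 genes were searched for the letters that stress-responsive transcription factors are known to read. The members below are shown because they hold such a motif. The sequences run from 250 bases before the annotated start to the base before it (RefSeq, build GRCm38.p6), 5′ to 3′ along the gene, with motif matches in capitals. Hspa5 lies on the plus strand at chr2:34771840-34772089 and Hsp90b1 on the minus strand at chr10:86705445-86705694. Herpud1 is on the plus strand at chr8:94386179-94386428, Chac1 on the plus strand at chr2:119350992-119351241 and Atf3 on the minus strand at chr1:191183334-191183583. These starts are those of RefSeq, whereas the gene spans given below come from the GENCODE annotation, and for Atf3 the start lies inside the span, which holds a longer transcript that begins further upstream.
Hspa5: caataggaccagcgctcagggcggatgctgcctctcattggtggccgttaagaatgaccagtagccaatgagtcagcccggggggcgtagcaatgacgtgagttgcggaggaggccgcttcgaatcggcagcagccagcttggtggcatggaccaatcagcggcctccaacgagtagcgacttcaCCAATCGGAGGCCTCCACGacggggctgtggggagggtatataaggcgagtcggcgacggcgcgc
Hsp90b1: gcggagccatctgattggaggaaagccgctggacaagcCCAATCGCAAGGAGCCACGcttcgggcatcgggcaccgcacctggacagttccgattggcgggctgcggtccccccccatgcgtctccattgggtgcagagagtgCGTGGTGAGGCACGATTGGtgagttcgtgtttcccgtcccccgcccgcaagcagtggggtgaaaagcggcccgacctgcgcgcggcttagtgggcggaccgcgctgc
Herpud1: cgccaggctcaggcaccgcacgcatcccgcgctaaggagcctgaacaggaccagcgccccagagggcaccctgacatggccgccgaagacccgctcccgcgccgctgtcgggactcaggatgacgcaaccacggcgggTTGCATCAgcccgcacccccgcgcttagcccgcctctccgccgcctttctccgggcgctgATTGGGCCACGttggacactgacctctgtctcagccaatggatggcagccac
Chac1: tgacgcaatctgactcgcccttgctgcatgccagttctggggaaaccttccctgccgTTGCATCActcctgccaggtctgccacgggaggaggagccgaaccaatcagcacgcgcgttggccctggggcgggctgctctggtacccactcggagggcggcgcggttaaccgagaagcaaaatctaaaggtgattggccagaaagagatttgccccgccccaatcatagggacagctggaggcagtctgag
Atf3: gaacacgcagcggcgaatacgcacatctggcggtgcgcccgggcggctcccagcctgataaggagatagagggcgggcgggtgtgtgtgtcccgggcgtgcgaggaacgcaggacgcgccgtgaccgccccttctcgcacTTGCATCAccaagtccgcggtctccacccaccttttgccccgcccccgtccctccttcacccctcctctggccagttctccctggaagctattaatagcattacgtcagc

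All 10 genes had an entry in the promoter table, and both strands of 300 bases were read, 250 before the start and 50 after it. The ER stress response element (ERSE) is CCAAT and CCACG with 9 bases between them. It was found in Hspa5, as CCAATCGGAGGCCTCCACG, and once on each strand in Hsp90b1. It occurs in 0.119% of 32851 promoters. Its shorter relative ERSE-II, which is ATTGG and CCACG with 1 base between, was found in Herpud1 and in 0.0365% of promoters. The C/EBP-ATF response element, TGATGNAA, a form of site read by ATF4 with C/EBP partners, was found in Atf3, Chac1, Herpud1 and Trib3, which is 4 of the 10, against 3.97% of promoters. Its match in Trib3, TTACATCA, lies after the start, from position 15. No member held TGACGTGG (the unfolded protein response element, in 0.676% of promoters) or TGACGTCA (the cAMP response element, in 1.79%), which share their first letters TGACGT. A match is only a match of letters, and binding was not measured.

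In β-like cells the transcription factor genes of the integrated stress response were higher in every cytokine library than in the untreated one. Ddit3 (chr10:127290774-127296288, plus strand, in the GRCm38 annotation) stood at 60.8 CPM (95% interval 57.4 to 64.3) untreated, 159 with IL-1β, 128 with IFN-γ and 246 in the combined library. The order of the libraries was the same for the share of cells. After every cell was thinned to 4000 UMIs, the share of cells with a Ddit3 UMI was 18.0% untreated, 39.8% in the IL-1β library, 33.3% in the IFN-γ library and 56.2% with both. Before thinning, which left out 141 of 4678 cells as too shallow, the shares were 43.2%, 58.5%, 53.6% and 81.4%. Relative to untreated, the Ddit3 ratio was 4.04 (3.79 to 4.32) in the combined library, 2.61 (2.42 to 2.82) in the IL-1β library and 2.11 (1.96 to 2.27) in the IFN-γ library.

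Atf4 (chr15:80255184-80257541, plus strand), whose protein drives the branch, stood at 154 CPM untreated, 383 with IL-1β, 238 with IFN-γ and 424 in the combined library. The combined library was 1.11 (1.06 to 1.15) times the IL-1β library, and these 2 libraries stood above the other 2. Atf4 is also controlled at translation, which these RNA counts do not measure. Atf3 (chr1:191170296-191218039, minus strand), a transcription factor induced by many stresses, was rare. It stood at 0.749 CPM untreated, 5.97 with IL-1β, 2.86 with IFN-γ and 29.8 in the combined library. The combined library was 39.8 (23.9 to 71.8) times untreated and 4.998 (3.78 to 6.72) times the IL-1β library. After thinning Atf3 was seen in 9.75% of cells with both cytokines and in 2.49%, 0.858% and 0.697% with IL-1β, IFN-γ and none. The thinned counts gave a ratio of 17.6 for the combined library, 4.29 for IL-1β and 1.35 for IFN-γ, the latter 2 against 7.97 and 3.82 from all UMIs, and the cause of the difference was not tested. Atf3 passed the filter on low levels, a mean of 5 CPM over the 4 libraries, only through the cytokine libraries, and its ratio is a description.

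Trib3 (chr2:152337422-152344032, minus strand), a pseudokinase induced by ATF4 and CHOP, stood at 9.48 CPM untreated, 49.1 with IL-1β, 24.0 with IFN-γ and 57.6 in the combined library. Chac1 (chr2:119351229-119354381, plus strand), a glutathione-degrading enzyme downstream of ATF4, stood at 16.1, 72.2, 30.8 and 74.0 in the same order. Both were highest in the 2 libraries with IL-1β and intermediate with IFN-γ alone. The combined library was 1.03 (0.931 to 1.13) times the IL-1β library for Chac1 and 1.17 (1.05 to 1.31) times for Trib3.

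**Figure D1:**
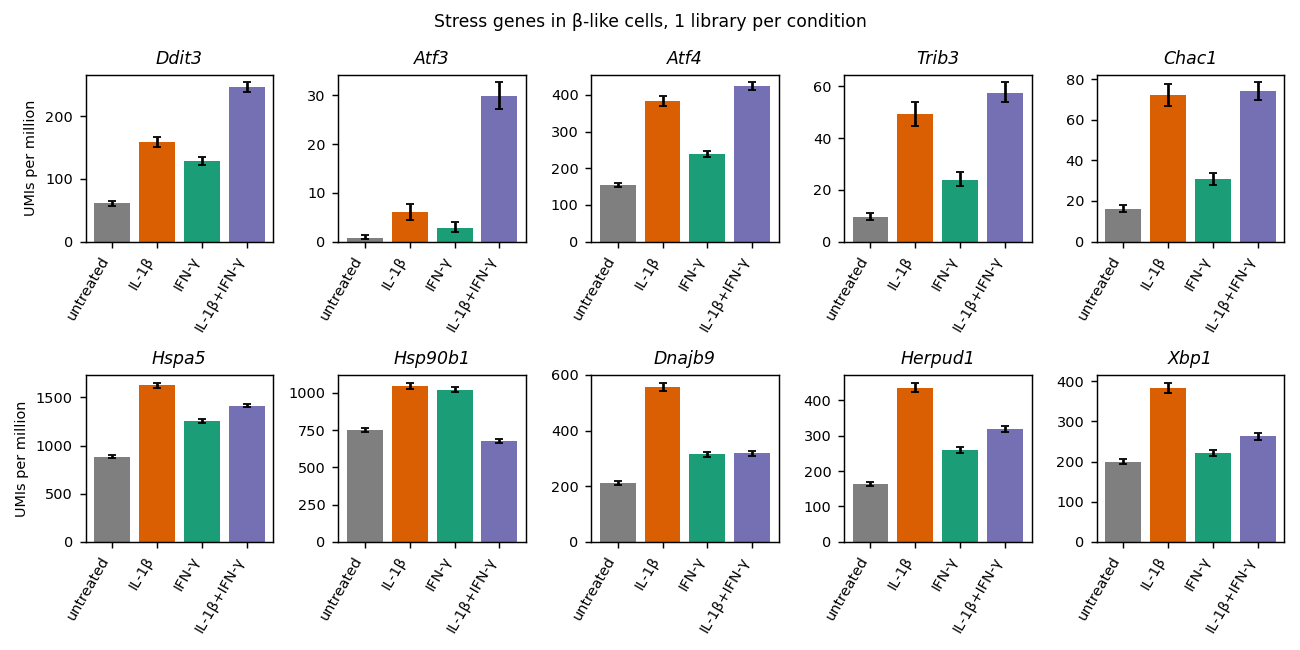
CPM (vertical axes, from 0) of each gene in β-like cells of the 4 libraries, with exact Poisson 95% intervals. Ddit3 reached 246 CPM and Atf3 29.8 with both cytokines, whereas Xbp1, Herpud1, Dnajb9 and Hspa5 were highest with IL-1β alone. Without hormone genes in the total, the Hspa5 intervals with IL-1β and with both overlapped.

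The chaperone genes followed another order. Hspa5 (chr2:34771970-34777547, plus strand) encodes BiP, the main ER chaperone of the HSP70 family and the one that holds the sensors inactive. It stood at 885 CPM untreated, 1626 with IL-1β, 1254 with IFN-γ and 1415 in the combined library. The IL-1β library was the highest and the combined library was 0.870 (0.852 to 0.888) times it. This order held only with hormone RNA counted. Without hormone genes in the total the levels were 2314 (2277 to 2351) with IL-1β and 2303 (2273 to 2334) in the combined library, with overlapping intervals. Hsp90b1 (chr10:86690209-86705509, minus strand), the ER member of the HSP90 family, stood at 749.8, 1048, 1022 and 678. It was thus higher with each cytokine alone and lower than untreated with both, at a ratio of 0.905 (0.882 to 0.927), although none of these differences from untreated reached 1.5-fold. The combined library was 0.647 (0.630 to 0.666) times the IL-1β library and 0.663 (0.647 to 0.680) times the IFN-γ library. Hspa5 and Hsp90b1 are the 2 members with the ER stress response element printed above.

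Dnajb9 (chr12:44205559-44210326, minus strand), an HSP40 cochaperone of BiP that is a target of spliced XBP1, stood at 212 CPM untreated, 556 with IL-1β, 314 with IFN-γ and 318 in the combined library. The combined library was 0.571 (0.549 to 0.594) times the IL-1β library and close to that with IFN-γ. Herpud1 (chr8:94386438-94395377, plus strand), a component of the ER-associated degradation machinery, stood at 164, 436, 258 and 319. Xbp1 (chr11:5520659-5525893, plus strand), whose RNA is spliced by the sensor IRE1 to yield an active factor, stood at 199, 384, 222 and 263. These counts are of all Xbp1 RNA and cannot tell the spliced form. All 3 genes were highest with IL-1β alone, and both Xbp1 and Herpud1 were lower with both cytokines than with IL-1β, at 0.685 and 0.733 times.

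A gene was called past the fold when its ratio was at least 1.5 or at most the inverse and its interval excluded 1. The counts of members called in β-like cells include Atf3. Its calls are descriptions, as it passed the filter on low levels only through the cytokine libraries. With IL-1β 9 of the 10 genes were past the fold, all higher, and Hsp90b1 at 1.40 was not. Of all 9175 genes at a mean of at least 5 CPM, 35.9% were called higher in that library and 9.08% lower. With IFN-γ 6 of the 10 were higher (Ddit3, Atf3, Atf4, Trib3, Herpud1 and Chac1), against 17.5% of all genes, and 1.08% of all genes were lower. With both, 7 were higher, against 20.5% higher and 17.3% lower of all genes, and Dnajb9 at 1.497, Xbp1 at 1.32 and Hsp90b1 at 0.905 were not. The median log2 ratio of the 10 genes was 1.39 with IL-1β, 0.64 with IFN-γ and 1.21 in the combined library, and that of all genes was 0.37, 0.29 and 0.05. From IL-1β to both cytokines, Ddit3 and Atf3 were past the fold upward (4.46% of all genes were) and Dnajb9 and Hsp90b1 downward (24.9% were). From IFN-γ to both, 5 were higher (Ddit3, Atf3, Atf4, Trib3 and Chac1, against 9.6% of all genes) and Hsp90b1 was lower (26.5%). With hormone genes left out of the total, Hsp90b1 stood at 1491 CPM with IL-1β, 1584 with IFN-γ and 1104 in the combined library. On that scale it was past the fold in neither comparison. The median log2 ratio of all genes was -0.31 and -0.24 in these comparisons. The cytokine libraries share 1 untreated library, so their ratios are not independent.

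Hormone RNA took 47.7% of β-like UMIs in the untreated library and 29.7%, 35.5% and 38.6% with IL-1β, IFN-γ and both. Less hormone RNA raises the share of every other gene. With the 7 hormone genes left out of the total, the median log2 ratio of all genes was -0.08, -0.02 and -0.21. On this scale 7 of the 10 genes were past the fold with IL-1β, 4 with IFN-γ and 6 in the combined library, all higher. Of 10064 genes, 15.3% were then higher and 22.8% lower with IL-1β, 5.83% and 5.66% with IFN-γ, and 13.5% and 28.7% with both. Hspa5 went to 1.37 with IL-1β and 1.36 with both, and Xbp1 to 1.43 with IL-1β. With IFN-γ, Atf4 went to 1.25, Herpud1 to 1.28 and Xbp1 to 0.904. Ddit3 had ratios of 1.94, 1.71 and 3.44, Trib3 3.86, 2.05 and 5.17, Chac1 3.34, 1.56 and 3.92, and Hsp90b1 1.04, 1.11 and 0.770.

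Other RNA moved with the libraries too. The summed level of 12 heat shock and immediate early genes in β-like cells, with Hspa8 the most abundant, was 1255 CPM untreated, 2459 with IL-1β, 1951 with IFN-γ and 3303 in the combined library. Leaving out cells with at least 10 UMIs per 10000 of Hspa1a, a heat shock protein gene, moved none of 84 ratios of the members outside their intervals. The 8 acinar markers summed to 53.7, 14.5, 75.3 and 317, with Ctrb1 leading, while somatostatin stood at 63.1, 638, 108 and 280, and glucagon at 320.2, 1035, 448 and 765, each highest in the 2 libraries with IL-1β. The 8 macrophage markers summed to 72.3, 42.5, 44.6 and 142, nearly all C1qa, and the 8 endothelial markers to at most 6.52. The part of RNA from these cells in the stress genes was not tested.

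**Figure D2:**
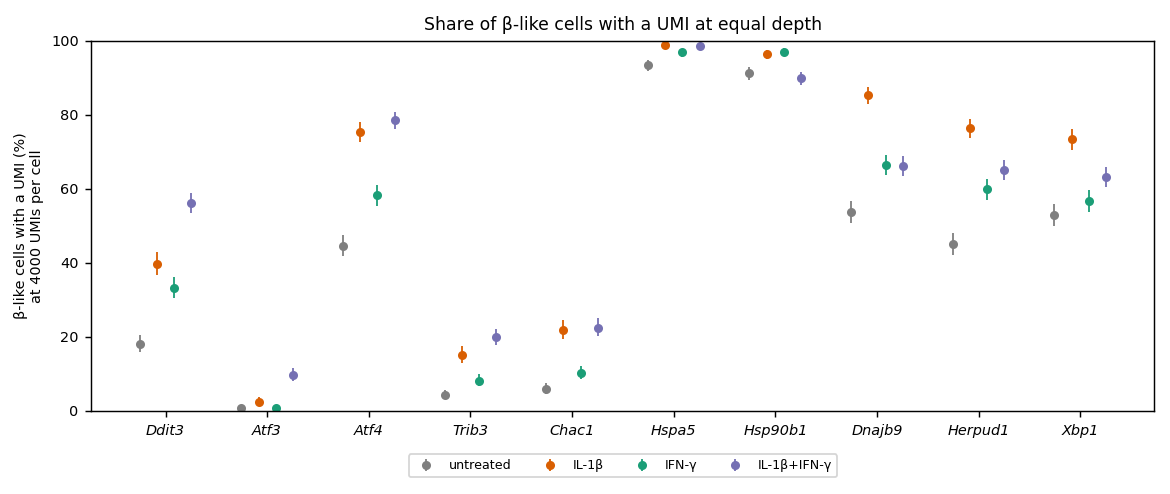
Share of β-like cells with at least 1 UMI of each gene (vertical axis, percent) after thinning every cell to 4000 UMIs, with exact binomial 95% intervals, by library. Ddit3 was seen in 18.0% of untreated cells and 56.2% with both cytokines, whereas Hsp90b1 was seen in 89.8% to 97.1% and Hspa5 in 93.5% to 98.8% of cells.

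In α-like cells Xbp1, Dnajb9 and Herpud1 were higher in both libraries with IL-1β than in the other 2. Xbp1 stood at 183 CPM untreated, 501 with IL-1β, 195 with IFN-γ and 440 in the combined library. Dnajb9 stood at 101, 365, 128 and 259. The Xbp1 ratio of 2.74 (2.30 to 3.27) with IL-1β lay above the interval in β-like cells, where it was 1.93 (1.84 to 2.02). That of Dnajb9 was 3.61 (2.87 to 4.58) against 2.62 (2.52 to 2.73). Herpud1 stood at 85.4, 192, 100.2 and 165. Hspa5 stood at 698, 955, 735 and 981, with the same 2 libraries high, but its ratios of 1.37 and 1.40 were under 1.5-fold.

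Atf4 and Ddit3 were highest in α-like cells with both cytokines. Atf4 stood at 119.6 CPM untreated, 166 with IL-1β, 119.7 with IFN-γ and 375 in the combined library. Ddit3 stood at 33.0 (21.7 to 48.0), 60.9 (50.8 to 72.4), 17.0 (11.8 to 23.8) and 150.3 (130.1 to 172.7). The IFN-γ library was the lowest of the 4 for Ddit3, at 0.517 (0.303 to 0.890) times untreated from 34 and 27 UMIs, whereas in β-like cells it was 2.11 times untreated. The combined library was 4.56 (3.04 to 7.09) times untreated for Ddit3, 3.13 (2.52 to 3.93) for Atf4 and 22.5 (7.49 to 111) for Atf3. Atf3 stood at 3.66, 19.5, 11.5 and 82.3 CPM, from 3 UMIs in the untreated library and 109 with both, and passed the filter on low levels only through the cytokine libraries, so its ratio is a description.

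With IL-1β 5 of the 10 genes were past the fold in α-like cells, all higher (11.4% of 9661 genes were, and 13.6% were lower). With IFN-γ only Ddit3 was past the fold, and it was lower (3.79% of genes were, and 7.95% were higher). With both, 7 were higher (11.2% were, and 17.5% were lower), and Chac1 among them rested on 1 untreated UMI with a ratio of 9.90 (1.54 to 415). The counts of 5 and 7 include Atf3, and Chac1 likewise passed the filter on low levels only through the combined library, so the calls of both genes are descriptions. Trib3 and Chac1 were near the limit of detection here, with at most 16 UMIs of either gene in a library. Hsp90b1 was at 1049.7 CPM untreated and 712 with both, a ratio of 0.678 (0.618 to 0.745), not past the fold. With hormone genes left out of the total its ratio was 0.636 (0.579 to 0.698), past the fold downward. The share of all genes called on that scale was not computed in α-like cells. The median log2 ratio of all genes was -0.07, 0.09 and -0.18 with hormone genes counted, and -0.17, -0.02 and -0.28 without them. The 12 heat shock and immediate early genes summed to 1946, 2401, 2276 and 5102 CPM in these cells. Spp1, a gene of the ductal marker list, stood at 2236, 9041, 3162 and 4199, somatostatin at 222, 1753, 691 and 634 and the β-cell gene Iapp at 2245, 6869, 2285 and 4689. Insulin RNA went the other way, at 5600.3 CPM untreated and 1766, 2256 and 1447 in the IL-1β, IFN-γ and combined libraries. Macrophage markers summed to at most 48.8. The part of RNA from other cells in the stress genes was not tested.

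δ-like cells were few, with between 165656 and 457152 UMIs in a library. Xbp1 stood at 238 CPM untreated, 573 with IL-1β, 258 with IFN-γ and 327 in the combined library, and Dnajb9 at 249, 586, 271 and 333. As in α-like cells, the IL-1β library was the highest for both genes. The 8 ductal markers summed to 1779, 3489, 1929 and 2173 CPM in these cells with Clu leading. Iapp, a gene of the β-cell marker list, stood at 35755, 52989, 31473 and 33469, while insulin RNA stood at 4553, 1135, 2030.0 and 1100.4, and the other 5 β-cell genes of that list had no UMI in either library with IL-1β. The 12 heat shock and immediate early genes summed to 3399, 2747, 3795 and 5276. The part of RNA from other cells was not tested. Ddit3 stood at 21.2 (5.77 to 54.2), 84.5 (46.2 to 141.8), 32.8 (18.4 to 54.1) and 164 (109.6 to 235), and the interval of the combined library lay above those of the untreated and IFN-γ libraries and overlapped that of IL-1β. Atf3 had no UMI untreated or with IL-1β, 1 with IFN-γ and 22 in the combined library, which is at least 7.82-fold higher with both than 3 UMIs in the untreated library.

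In δ-like cells 9 of the 10 genes passed the filter on low levels, and Trib3 did not. With IL-1β 4 were past the fold, all higher (Ddit3, Xbp1, Herpud1 and Dnajb9, against 4.8% of 9705 genes higher and 3.87% lower). With IFN-γ 2 were, both lower (Atf4 at 0.554 and Chac1 at 0.138, against 3.28% of genes lower and 2.87% higher). Chac1 rested on 6 UMIs untreated and 2 with IFN-γ, and neither gene was past the fold after thinning. With both, Ddit3 and Atf3 were called higher (5.52% of genes were, and 5.96% were lower), but Atf3 passed the filter only through the combined library, so its call is a description. A looser cut, a leading hormone of at least 1% of UMIs, chosen after seeing how few cells the first one kept, gave 36, 92, 117 and 67 δ-like cells. With both cytokines 6 of the 10 genes were then past the fold, of which Ddit3, Atf3, Atf4, Trib3 and Dnajb9 were higher (8.61% of 9912 genes were) and Hsp90b1 lower (11.3%). Atf3 and Trib3 passed the filter at this cut only through the 2 libraries with IL-1β, so their calls are descriptions. Hsp90b1 stood at 1279.5 CPM untreated, 1010.1 with IL-1β, 1438 with IFN-γ and 738 in the combined library, a ratio of 0.577 (0.497 to 0.670) for the combined library. With both cytokines Hsp90b1 was thus the lowest of the 4 libraries in all 3 endocrine types.

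**Figure D3:**
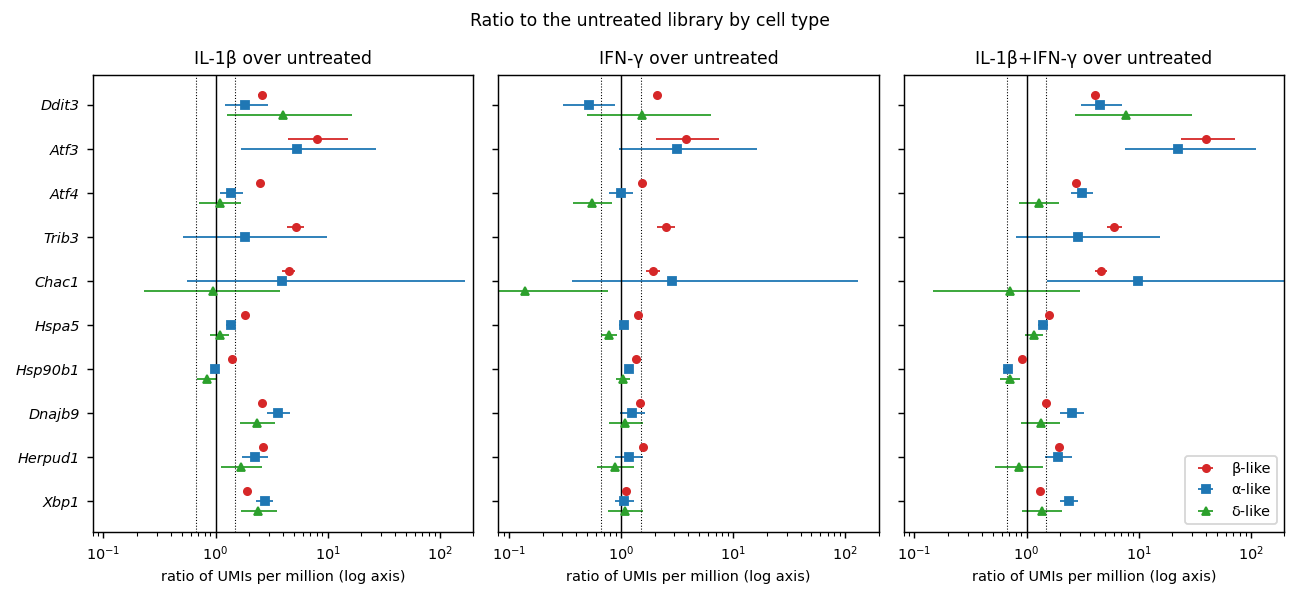
Ratio of CPM to the untreated library (horizontal log axes) for each gene in β-like, α-like and δ-like cells, with exact conditional 95% intervals, solid line at 1 and dotted lines at 1.5 and its inverse. With IFN-γ Ddit3 was at 2.11 in β-like cells and 0.517 in α-like cells. Ratios with no UMI in a library are not drawn, and 2 wide intervals run past the axes.

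Levels in untreated cells differed between cell types, and so did the share of UMIs taken by hormone RNA, at 47.7% in β-like, 27.1% in δ-like, 25.2% in α-like, 47.9% in PP-like, 0.927% in macrophage-like and 0.682% in endothelial-like cells. Levels across types are therefore given with hormone genes in the total and, as an alternative added after these values were seen, without them for Atf4, Hspa5 and Ddit3. Atf4 was highest in endothelial-like cells, at 462 (374 to 566) CPM untreated, and stayed between 416 and 499.7 in all 4 libraries there. It was 249 in δ-like cells, 154 in β-like cells, 119.6 in α-like cells, 119.0 in PP-like cells and 95.4 in macrophage-like cells, and the intervals of the last 3 overlapped. Without hormone genes in the total these levels were 466 (376 to 569.7) in endothelial-like, 342 (250.97 to 454) in δ-like, 295 in β-like, 228 in PP-like, 159.8 in α-like and 96.3 in macrophage-like cells, and the intervals of endothelial-like and δ-like cells overlapped. Atf3 was highest in macrophage-like cells, at 181 untreated, 258 with IL-1β, 363 with IFN-γ and 195 in the combined library. The intervals of the untreated and IFN-γ libraries did not overlap. In endothelial-like cells Atf3 stood at 24.6, 34.3, 79.8 and 86.5, from 5 UMIs untreated and 18 with both, and it was 0.749 in untreated β-like and 3.66 in untreated α-like cells. No UMI was seen in untreated δ-like cells, where 3 counts would be 15.9 CPM.

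Hspa5 was 1197 CPM in untreated δ-like cells, 885 in β-like cells, 738 in PP-like, 698 in α-like, 664 in endothelial-like and 363 in macrophage-like cells. The intervals of PP-like, α-like and endothelial-like cells overlapped. Without hormone genes in the total the order of the first 2 turned, with 1692 (1668 to 1717) in β-like and 1642 (1435 to 1871) in δ-like cells, whose intervals overlapped, and PP-like cells at 1415, α-like at 933, endothelial-like at 669 and macrophage-like at 366. Xbp1 in PP-like cells stood at 238 untreated, 823 with IL-1β, 234 with IFN-γ and 614 in the combined library, and in endothelial-like cells at 108, 212, 111 and 168. In PP-like cells, of which there were 29, 27, 54 and 48, the 2 libraries with IL-1β were the high ones, as in α-like cells. Ddit3 in untreated cells was 60.8 in β-like and 60.4 in macrophage-like cells and between 21.2 and 33.0 in the other 4 types. Without hormone genes it was 116 (109.7 to 122.9) in β-like and 61.0 (36.7 to 95.2) in macrophage-like cells, so the near-equal values held only with hormone RNA counted, and 29.1 to 55.8 in the others. In macrophage-like cells the Ddit3 intervals of all 4 libraries overlapped, and Chac1 had no UMI in any library, where 3 counts would be 9.002 to 14.3 CPM.

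**Figure D4:**
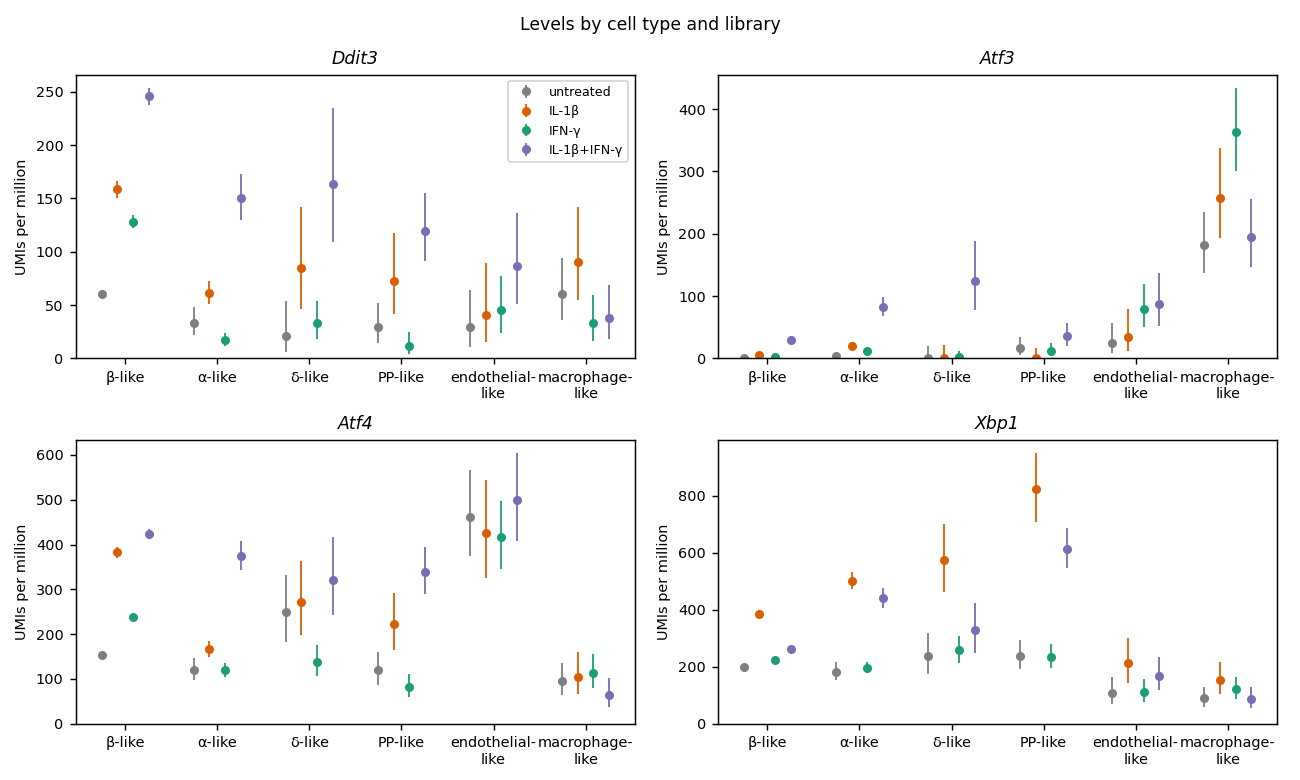
CPM of Ddit3, Atf3, Atf4 and Xbp1 (vertical axes, from 0) by cell type and library, with exact Poisson 95% intervals. Atf3 reached 363 CPM in macrophage-like cells, and Atf4 in endothelial-like cells was between 416 and 499.7 in every library.

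The spread over single β-like cells was described after thinning. The 4000 UMIs of a cell include hormone RNA, whose share was 47.7% untreated and between 29.7% and 38.6% in the cytokine libraries, so the UMIs left for other genes were not equal, which also holds for the thinned shares above. At 4000 UMIs per cell, the 10% of cells with most Ddit3 UMIs held 69.4% of them untreated, 45.9% with IL-1β, 58.3% with IFN-γ and 41.5% in the combined library. The variance of Ddit3 counts was 3.30 times their mean with IFN-γ, where 1 cell held 24 UMIs, and 1.83, 1.90 and 2.19 times in the untreated, IL-1β and combined libraries. The share held by these cells was also high for genes with few UMIs, at 100% for Atf3 in every library and for Trib3 and Chac1 untreated. The variance of Atf4 counts was between 1.13 and 1.36 times their mean, and that of Hspa5 counts between 2.10 and 2.33 times. A median of 4 of the 10 genes was detected per cell untreated, 6 with IL-1β, 5 with IFN-γ and 6 in the combined library.

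Trib3 and Chac1 were seen more often in cells with Ddit3. Trib3 was seen in 15.9% (11.2 to 21.7) of untreated cells with a Ddit3 UMI and 1.81% (1.06 to 2.88) of those without. The shares were 20.6% and 11.6% with IL-1β, 17.8% and 3.34% with IFN-γ, and 24.9% and 13.5% with both. Chac1 was seen in 12.6% of untreated cells with Ddit3 and 4.47% of those without. Its shares were 27.1% and 18.4% with IL-1β, 14.9% and 7.84% with IFN-γ, and 28.1% and 15.3% with both. For Trib3 and Chac1, cells with Ddit3 had the higher share in each library, at a thinned depth of 4000 UMIs. Atf3 was seen in 1.45% and 0.532%, 4.26% and 1.32%, 1.29% and 0.643%, and 11.4% and 7.66% in the same library order. Its intervals overlapped in each library. Before thinning, untreated cells with and without Ddit3 had medians of 15781 and 17536 UMIs. Atf4 was seen in 64.3% of untreated cells with Ddit3 and 40.3% of those without. Its shares were 73.7% and 50.5% in the IFN-γ library, 82.5% and 73.3% in the combined library, and 79.9% (75.7 to 83.8) and 72.4% (68.6 to 75.9) in the IL-1β library, where the intervals overlapped. Dnajb9, Herpud1 and Hspa5 were read in the same way. Hspa5 was seen in 99.2% (97.8 to 99.8) and 95.6% (93.9 to 97.0) in the IFN-γ library, where the intervals did not overlap. Its shares were 96.1% and 92.9% untreated, 99.2% and 98.5% with IL-1β, and 98.5% and 98.3% with both, with overlapping intervals. Dnajb9 was seen in 51.2% and 54.4% of untreated cells, 88.5% and 83.3% with IL-1β, 71.1% and 64.1% with IFN-γ, and 68.8% and 63.0% with both, and the intervals overlapped in each library. Herpud1 was seen in 73.7% and 53.1% in the IFN-γ library, and in 47.8% and 44.5% of untreated cells, 81.0% and 73.3% in the IL-1β library and 67.5% and 62.1% in the combined one, where the intervals overlapped. Across cells of a library the Pearson correlation of thinned counts was 0.24, 0.16, 0.23 and 0.19 for Ddit3 with Atf4, over 1147, 1003, 1166 and 1221 cells. It was 0.06, 0.14, 0.33 and 0.23 for Ddit3 with Hspa5, which with IFN-γ and with both was above that with Atf4, and -0.01, 0.05, 0.18 and 0.15 for Ddit3 with Dnajb9. It was at most 0.03 for Ddit3 with Xbp1 and was 0.32, 0.31, 0.31 and 0.27 for Hspa5 with Hsp90b1.

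Nos2, the inducible nitric oxide synthase gene, was read from all UMIs of a cell, before thinning, so its detection was not at equal depth. It was seen in 327 of the 1003 β-like cells deep enough to thin with IL-1β and 895 of 1221 with both. The levels of the members in these cells are from thinned counts. Chac1 was 94.0 CPM in cells with Nos2 and 55.8 in cells without with IL-1β, and 83.8 and 53.7 with both, ratios of 1.68 (1.32 to 2.15) and 1.56 (1.20 to 2.06). Trib3 was 1.503 (1.11 to 2.02) and 1.38 (1.04 to 1.85) times as high with Nos2. Ddit3 was not higher in cells with Nos2, at ratios of 0.971 (0.819 to 1.15) and 0.837 (0.745 to 0.943). Hsp90b1 was lower in them, at 0.878 and 0.837 times. Atf3 was at 0.517 (0.173 to 1.30) times with IL-1β and 2.01 (1.28 to 3.29) times with both, from 6 and 24 UMIs and 127 and 23 UMIs. Cells with Nos2 were deeper before thinning, with medians of 9455 against 8580 UMIs and 12977 against 11217, and the part of depth was not tested. The 76 cells with high Hspa1a in the IL-1β library held 14 of 30 thinned Atf3 UMIs. Dnajb9 and Xbp1 were 0.563 and 0.579 times as high in them as in the other 927 cells. Chac1 at 0.510, Herpud1 at 0.678, Atf4 at 0.679 and Hspa5 at 0.742 were also lower, with intervals under 1. Hsp90b1 was higher, at 1.19 (1.07 to 1.33), and the intervals of Ddit3 and Trib3 held 1. In the 17 untreated cells with high Hspa1a, Ddit3, Chac1 and Atf4 were higher, at 3.98 (2.29 to 6.48), 4.68 (1.47 to 11.4) and 1.79 (1.07 to 2.81). The Ddit3 ratio was 1.68 with IFN-γ and 0.745 with both. For Dnajb9 the ratio was 1.64 untreated, 1.005 with IFN-γ and 1.04 with both, and for Xbp1 it was 0.439 (0.161 to 0.959), 1.008 and 0.940. For Atf3 it was 39.9 (6.19 to 205) untreated from 3 and 5 UMIs, 3.70 (0.389 to 17.9) with IFN-γ and 1.43 (0.761 to 2.48) in the combined library.

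Wider lists of the same pathways were counted without the 10 genes. Of 23 further integrated stress response genes at the tested level, 20 were past the fold upward in β-like cells with IL-1β, 6 with IFN-γ and 18 in the combined library, and none was lower. The shares of all genes called higher were 35.9%, 17.5% and 20.5%. Slc7a11, the cystine transporter, was 25.4 times untreated with IL-1β and 9.25 times with both, from 1.75 to 44.4 and 16.2 CPM. It passed the filter on low levels only through these 2 libraries, so its calls are descriptions. Cebpb, a partner factor of ATF4, was 5.07 times untreated with IL-1β, and Nupr1, a small stress-induced chromatin protein, was 4.01 times with both. Ppp1r15a, which restores translation by recruiting a phosphatase, was 3.05, 1.65 and 3.52 times untreated. The 6 genes higher with IFN-γ were Wars at 7.73, Slc7a11 at 2.18, Psat1 at 2.08, Cebpb at 1.71, Ppp1r15a at 1.65 and Nupr1 at 1.62. Wars, tryptophanyl-tRNA synthetase, is also an interferon-induced gene. The list's median log2 ratio was 1.06 with IL-1β, 0.36 with IFN-γ and 1.16 in the combined library.

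The ER chaperone and folding genes were mostly outside the fold. Of 15 without the members, 2 were higher with IL-1β (Ero1l at 4.10 and Canx at 1.53), none with IFN-γ, and with both 1 was higher (Ero1l at 1.73) and 3 lower. Of all genes 35.9%, 17.5% and 20.5% were higher, and 17.3% were lower with both, which is near the share of these genes that were lower. The 3 lower ones were Ero1lb, a pancreatic ER oxidase, at 0.521, Dnajc3, a BiP cochaperone, at 0.617, and Pdia4, a disulfide isomerase, at 0.646. The list's median log2 ratio was 0.28, 0.21 and -0.13, below that of all genes in each case. Sdf2l1 stood at 308 CPM untreated and 213 with both, and Hyou1 at 151 and 119.

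Of 10 further ER-associated degradation genes, 5 were higher with IL-1β, 3 with IFN-γ and 2 in the combined library, the last near the 20.5% of all genes. Edem1, which routes misfolded glycoproteins to degradation, was 2.36, 1.64 and 1.77 times untreated. Of 9 sensors, their proteases and stress kinases, 6 were higher with IL-1β, 5 with IFN-γ and 3 in the combined library, where 1 was lower, against 35.9%, 17.5% and 20.5% of all genes higher and 17.3% lower with both. Eif2ak3, which encodes PERK, was 2.49, 1.19 and 1.58 times untreated, and Ern1, which encodes IRE1, was 1.85, 1.52 and 0.973. Eif2ak2, an interferon-induced kinase activated by double-stranded RNA, was 2.04, 3.82 and 2.78 times. Atf6b, a relative of the sensor ATF6, was lower with both, at 0.639. Of the 12 heat shock and immediate early genes 11 were higher with IL-1β, 9 with IFN-γ and 8 in the combined library, while Fos and Egr1 were lower with both, against the same shares of all genes. In α-like cells, 8 of 22 integrated stress response genes were higher and 1 lower with IL-1β, 1 higher and 4 lower with IFN-γ, and 12 higher and 1 lower with both. Of all genes in α-like cells, 11.4% were higher and 13.6% lower with IL-1β, 7.95% and 3.79% with IFN-γ, and 11.2% and 17.5% with both.

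**Figure D5:**
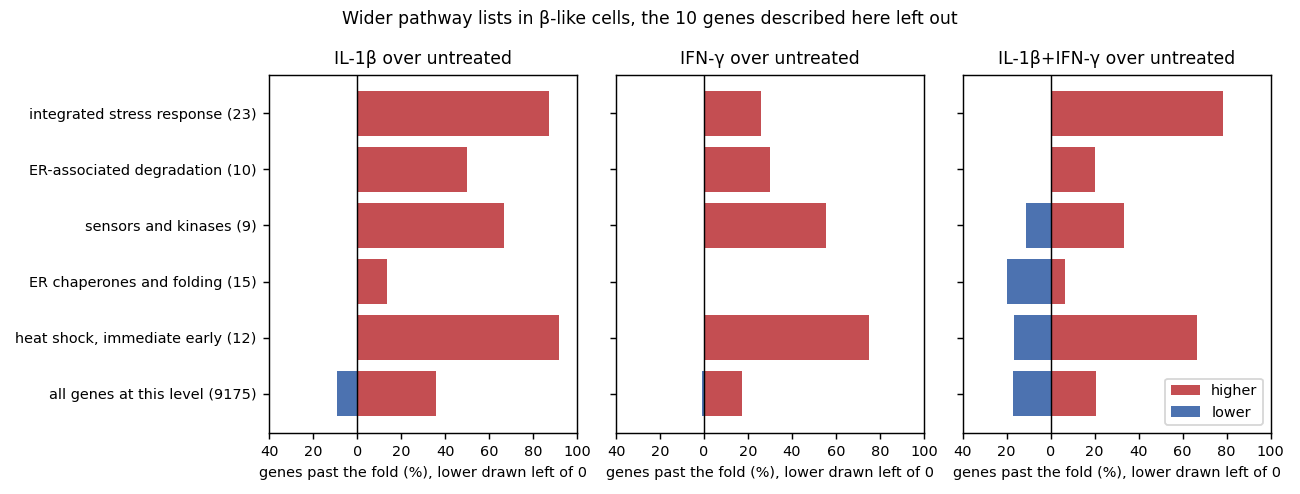
Percent of the tested genes of each list past the fold in β-like cells (horizontal axes, higher to the right of 0 and lower to the left), without the 10 genes described here, by cytokine library. The lowest bar gives all 9175 genes, of which 35.9%, 17.5% and 20.5% were higher. The number tested stands in parentheses.

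Over the 12 sums of β-like, α-like and δ-like cells in the 4 libraries, the pattern of Ddit3 was most like that of Nupr1, with a Pearson r of 0.91 on log2 levels among 5689 genes at a mean of at least 20 CPM. Cebpg, Slc20a1, Rab7 and Dgkh followed at 0.88, 0.88, 0.88 and 0.87. The pattern of Hspa5 was most like that of Atp6v1a and Nars, at 0.97 and 0.96, followed by Dgkg, Sowahc and Chac1 at 0.93, 0.92 and 0.92. The sums share libraries and cell types, so these values are descriptions only.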

How the data were processed

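Single-cell 3′ libraries of islet cells were sequenced on the 10x Genomics platform, with Cell Ranger and the mm10 build named in the submitters' processing notes and software version 3.0.0 in the matrix headers. The kit is version 3 in the study's methods and version 2 in the labels. The deposited values are raw UMI counts per gene and cell, made by the authors without normalization.

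Matrices were analysed in Python 3.11.15 (scipy 1.17.1, pandas 2.3.3, numpy 2.4.6) and figures drawn with matplotlib 3.10.9. Counts were summed per library and cell type and expressed in CPM, with exact Poisson intervals. Shares have exact Clopper-Pearson binomial intervals and ratios exact conditional binomial ones, all at 95%. UMIs were thinned at random to 4000 per cell for shares. No doublet caller was run. Types with under 10 cells in a library gave no value, and a ratio with at most 3 UMIs on both sides was not called. Cells that met the ductal marker rule carried a median of 2.31% somatostatin UMIs and are not described, nor are 63 acinar-like and 27 mesenchymal-like cells. Named genes of the wider lists are the 3 with the largest and smallest ratios past the fold per library, with further list members named as examples after their values were seen. The members and lists were chosen with earlier results of these data known. The ratio method was run on simulated Poisson counts. These hold no spread between cells or libraries, so the run checked the calculation and not whether the intervals are wide enough for real cells. Alternatives changed 1 choice at a time, except the stricter gate, which changed the hormone share and the ratio to the next hormone together. They were thinning, a mitochondrial limit of 20%, no upper gene limit, hormone genes left out, and a stricter gate (20% of UMIs and 10 times the next hormone). The others were a looser gate, Hspa1a-high cells left out, the mean over cells, and no filter on low levels.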

Additional observations from a re-analysis of the deposited data

Results flagged for a closer look

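Ddit3, Atf4 and Chac1 were past the fold in opposite directions in different cell types of the IFN-γ library. Ddit3 was 2.11 times untreated in β-like cells and 0.517 times in α-like cells. Atf4 was 1.54 times untreated in β-like cells and 0.554 times in δ-like cells, and Chac1 was 1.92 times in β-like and 0.138 times in δ-like cells. With 1 library per condition these differences between cell types were not tested. The δ-like values rested on 47 and 63 UMIs of Atf4 in the untreated and IFN-γ libraries, and on 6 and 2 of Chac1. After thinning, neither δ-like gene was past the fold, with Atf4 at 0.698 times untreated, and with hormone genes left out of the total Atf4 in β-like cells was at 1.25, not past the fold either.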

How the results depend on the processing

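No ratio that was past the fold changed direction under any alternative that gave a value. Leaving out Hspa1a-high cells, a mitochondrial limit of 20% and no filter on low levels moved 0 of 84 ratios outside the 95% interval of the reported value, no upper gene limit moved 1, the mean over cells 6 and the looser gate 9. Thinning moved 17 of 78 ratios, the stricter gate 17 of 60, and leaving out hormone genes 27 of 84. The β-like counts past the fold ranged over 7 to 9 genes in the IL-1β library, 4 to 6 in the IFN-γ library and 6 to 8 in the combined one. In α-like cells with IFN-γ the count of 1 became 3 with no upper gene limit and 2 with Hspa1a-high cells left out or with the looser gate. In δ-like cells with IFN-γ the count of 2 became 0 after thinning and 1 with the mean over cells, and with both cytokines 2 became 6 with the looser gate. The share of all genes called higher also moved. In β-like cells it was 35.9%, 17.5% and 20.5%, and 15.3%, 5.83% and 13.5% with hormone genes left out. In δ-like cells with both it was 5.52%, and 8.61% with the looser gate. For the other alternatives this share was not computed, so the counts show only how calls depend on processing. Atf4 with IFN-γ in β-like cells, at 1.54, was no longer past the fold with no upper gene limit (1.49), the stricter gate (1.42), the mean over cells (1.47) or hormone genes left out (1.25). The causes were not tested. The stricter gate gave no δ-like value, as a library had under 10 cells. Depth limits Trib3 and Chac1 in α-like and δ-like cells. No paired analysis was possible because each condition had 1 library.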
